A study of Mus musculus with 36 samples.

Results

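The genes described here build the perineuronal net and the chondroitin sulfate chains it carries. The set holds 40 mouse genes. They code for proteoglycan core proteins, link proteins, tenascins, reelin, the enzymes and receptor of hyaluronan, and the enzymes that make and sulfate chondroitin sulfate. Each gene was read from the probe set with its highest mean over all arrays, and 36 of the 40 genes were listed in the annotation, out of 17097 genes in all. Cspg4, Hapln3, Xylt1 and Chsy3 were not listed with a probe set and were not analysed here. Of the 36, 32 were tested and 4 (Ncan, Hapln1, Tnr and Chst3) fell below the filter on low values, a mean of 5.19 log2.

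A perineuronal net is a lattice of hyaluronan, lecticans such as aggrecan, brevican and neurocan, link proteins and tenascin-R that coats the bodies and proximal dendrites of certain neurons. Chondroitin sulfate chains start from a short linker sugar on the core protein, are lengthened by paired polymerising enzymes, and are then sulfated and in part epimerised to dermatan sulfate, and the sulfation pattern sets what the chain binds. Outside the central nervous system, versican and tenascin-C are matrix proteins of stroma, vessels and healing wounds, and chondroitin sulfate proteoglycans are known to restrain growing axons.

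Mouse arrays were used to measure RNA from the neural fraction of the stroma of human oral carcinomas. The tumours were grown orthotopically in NSG mice, which lack mature T, B and natural killer cells and keep impaired macrophages. The study asked how dietary palmitic acid, and CD36 in the tumour cells, bear on the tissue around the tumour. There were 36 arrays in 11 groups and 3 experiments. In the first VDH15 experiment all tumours carried the PLKO control vector, and the host mice ate a control, a palmitate-rich or an oleate-rich diet (4 arrays each). In the SCC25 experiment and in the second VDH15 experiment the tumours carried either PLKO or an shRNA against CD36 (shCD36), and the mice ate the control or the palmitate-rich diet (3 arrays for each of the 4 groups). VDH15 and SCC25 are human oral carcinoma cell lines. The shRNA was in the tumour cells, and the arrays carried mouse probe sets, meant for the host's cells. Whether RNA of the human tumour cells added to the signals was not tested. Whether PLKO was an empty vector or carried a sequence without a target, how long the diets lasted and how many mice a group pooled are not given in the sources used here. Each group is labelled as 1 biological replicate and its arrays as technical replicates, so the main test compared group means over experiments. A second test compared the arrays within an experiment, and its p-values measure only the spread between arrays, which may be technical.

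Of the Schwann cell markers, Erbb3 (8.97 log2), Ngfr (7.78) and Sox10 (6.85) lay above the filter, while S100b (4.87), Foxd3 (4.38) and Fabp7 (5.06) lay below it. Of 13 neuron markers 6 were below the filter, and so were 6 of 8 astrocyte and oligodendrocyte markers, Gfap (4.45 log2) among them. Keratinocyte, fibroblast and endothelial marker lists had means in every group of at least 10.09, 8.34 and 7.93 log2. Along the first principal component, which held 38.7% of the variance, 3 arrays stood apart: palmitate arrays 1 and 2 of the first VDH15 experiment (81.3 and 75.1) and PLKO palmitate array 1 of the second (60.6). They were taken as the 3 highest of the PLKO palmitate arrays, the next being at 31.8. Leaving them out therefore removes arrays of that condition only.

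Among the 32 tested genes 5 rose on the palmitate diet in PLKO tumours, and the 5 promoters are shown here because these genes, of different roles, moved the same way. Each line gives the 250 bases before the gene's most upstream start in RefSeq, build GRCm38.p6, written in the gene's direction, at chr10:62527446-62527695 on the minus strand for Srgn, chr13:89742513-89742762 on the minus strand for Vcan, chr10:34207236-34207485 on the minus strand for Dse, chr7:66109242-66109491 on the plus strand for Chsy1 and chr4:64047016-64047265 on the minus strand for Tnc. Capitals mark 3 short motifs found on either strand, a match on the other strand being shown as its reverse complement: the GC box, GGGCGG, then the CCAAT box, and the TATA box, whose letters were TATAAA.
Srgn: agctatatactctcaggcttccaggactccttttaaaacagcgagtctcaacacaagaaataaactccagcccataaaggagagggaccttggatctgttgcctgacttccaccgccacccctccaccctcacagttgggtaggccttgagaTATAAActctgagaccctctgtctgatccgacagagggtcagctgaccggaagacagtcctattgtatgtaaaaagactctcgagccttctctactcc
Vcan: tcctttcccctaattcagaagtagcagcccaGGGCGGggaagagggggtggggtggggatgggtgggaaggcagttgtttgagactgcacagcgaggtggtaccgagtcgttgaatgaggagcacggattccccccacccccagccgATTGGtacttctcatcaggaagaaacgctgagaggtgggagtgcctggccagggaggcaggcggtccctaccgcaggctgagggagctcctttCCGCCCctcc
Dse: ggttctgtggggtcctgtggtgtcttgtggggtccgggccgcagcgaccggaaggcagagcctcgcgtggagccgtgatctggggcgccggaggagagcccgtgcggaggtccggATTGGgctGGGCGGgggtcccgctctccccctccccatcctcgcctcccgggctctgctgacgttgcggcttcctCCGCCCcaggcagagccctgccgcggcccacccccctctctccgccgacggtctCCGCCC
Chsy1: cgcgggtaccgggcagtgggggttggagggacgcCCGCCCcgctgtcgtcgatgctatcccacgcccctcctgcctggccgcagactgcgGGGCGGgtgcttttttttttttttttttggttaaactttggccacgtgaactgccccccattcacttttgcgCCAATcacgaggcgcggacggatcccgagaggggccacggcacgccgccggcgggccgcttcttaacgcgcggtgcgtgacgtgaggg
Tnc: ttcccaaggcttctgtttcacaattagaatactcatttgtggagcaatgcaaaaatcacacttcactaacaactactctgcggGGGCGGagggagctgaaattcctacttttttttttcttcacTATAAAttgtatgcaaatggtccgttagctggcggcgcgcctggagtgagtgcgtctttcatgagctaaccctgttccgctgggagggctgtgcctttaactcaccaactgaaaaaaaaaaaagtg
The marked motifs did not overlap in these 5 windows. The table lists 2 starts for Srgn and for Tnc. The window of the other Srgn start, 19688 bases downstream, held none of the motifs searched, and that of the other Tnc start, 79 bases downstream, held TATAAA and GGGCGG as the one shown does. Of the 32 tested members, 27 matched the table, with 32 windows in all. TATAAA stood in the windows of Srgn and Tnc, ending 93 and 121 bases before the start. It stood in 3 of the 32 windows of tested members and in 12.4% of all 32851 windows of the same length. GGGCGG stood in the windows of Chsy1, Dse, Tnc and Vcan, in 22 of the 32 windows of tested members and in 32.7% of all windows. CCAAT stood in those of Chsy1, Dse and Vcan, in 13 of those 32 windows and in 33.8% of all. TGANTCA, the form bound by AP-1, was in none of the 5, in 1 of the 32 windows and in 6.75% of all windows. None of the 4 motifs was shared by all 5.

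The genes that define the perineuronal net of the brain had low signals that varied little over the 11 groups. Group means of Acan (aggrecan, the main core protein of the net) lay between 5.84 and 5.94 log2. Those of Bcan (brevican) lay between 5.65 and 5.98, both ends from PLKO tumours of the second VDH15 experiment, where Bcan was lower on palmitate among arrays (-0.34, limma, adjusted p = 0.00369) with no overlap. Over the 3 experiments Bcan did not pass the test. Ncan (neurocan) lay between 5.11 and 5.24. Cspg5 (neuroglycan C, a neuronal membrane proteoglycan) lay between 5.17 and 5.39. Of the link proteins, which tie lecticans to hyaluronan, Hapln1 lay between 4.44 and 4.62, Hapln2 between 5.40 and 5.53 and Hapln4 between 5.49 and 5.70. Tnr (tenascin-R, which crosslinks lecticans) lay between 3.72 and 3.84. No detection calls were used, so these values do not show whether the transcripts were absent.

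Other members ranged more widely between groups. These ranges are on the deposited scale, on which the cell lines and batches had no remaining difference once diet and shRNA were modelled. The range of group means exceeded 1 log2 for 9 of the 32 tested genes, against 11.7% of all tested genes, and it was under 0.5 log2 for 18 of the 36. The share of all genes under 0.5 log2 is not given here. The 9 were Reln, Vcan, Srgn, Csgalnact1, Has3, Ptprz1, Has1, Has2 and Dse. The heat map of group means shows Vcan and Srgn high in the 3 palmitate groups of PLKO tumours and Reln ranging over 3.06 log2.

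**Figure D1:**
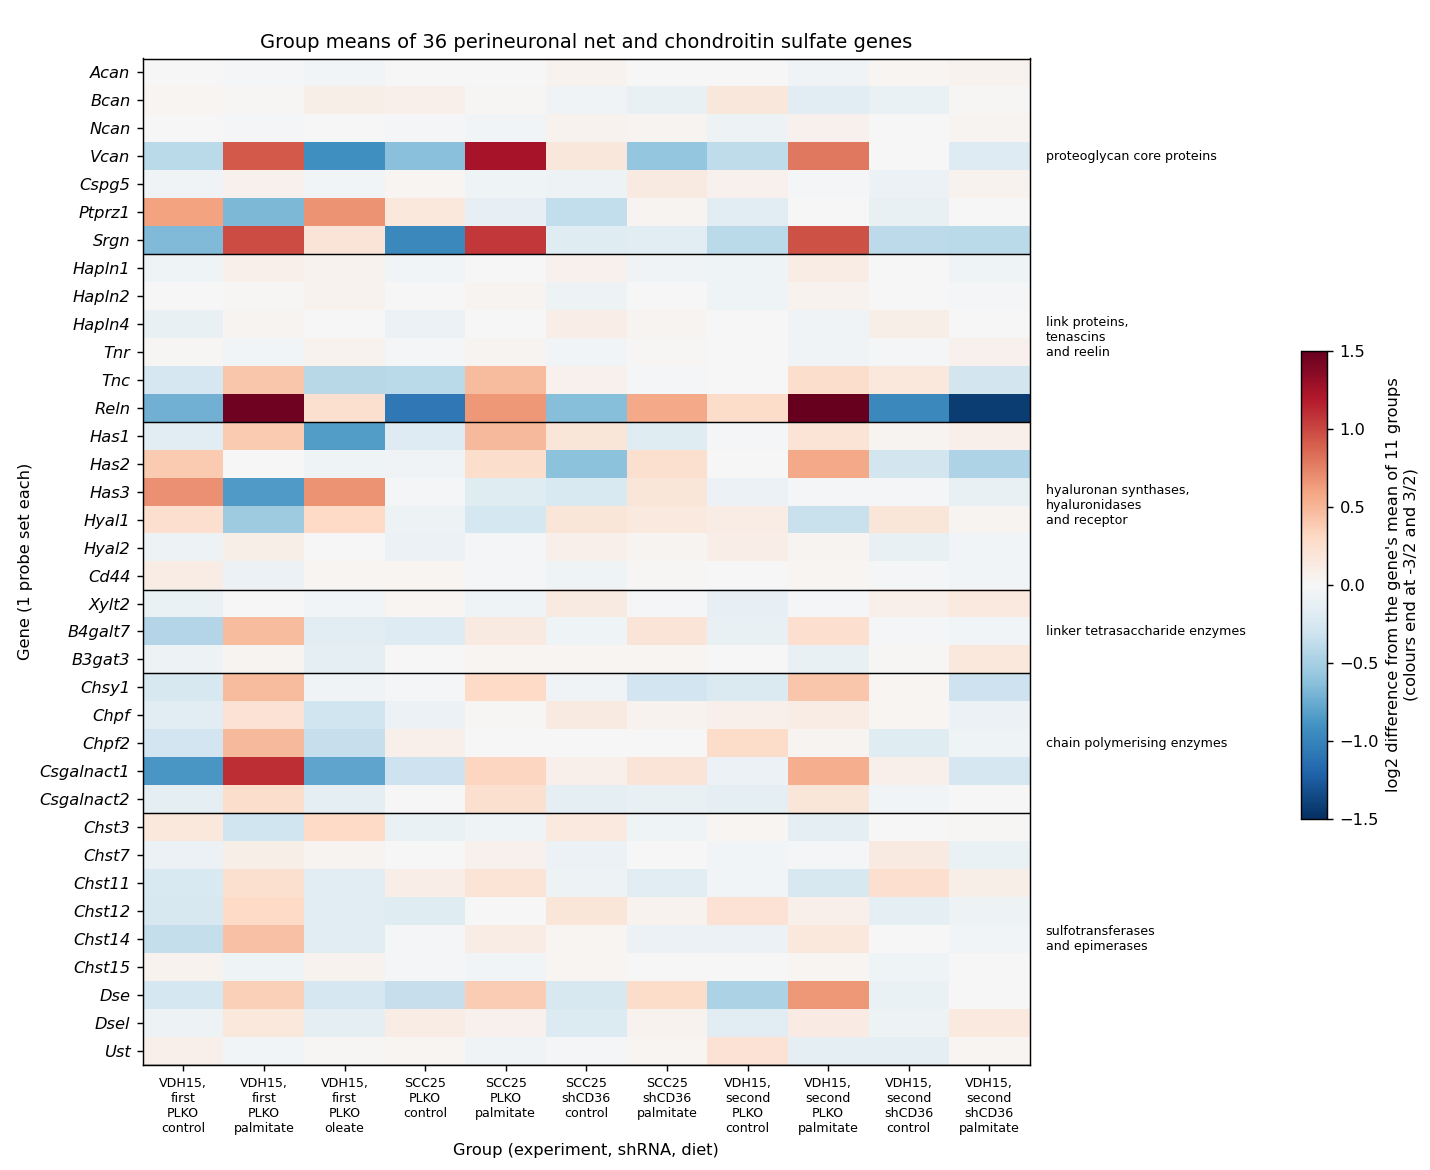
Heat map of the 36 genes (rows, ordered by role) over the 11 groups (columns, labelled by experiment, shRNA and diet). Colour is the log2 difference of the group mean from the gene's own mean of the 11 groups, red above and blue below; Reln spans 3.06 log2 between groups and Acan 0.11.

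On the palmitate diet the neural fraction of PLKO tumours had more Srgn, Vcan, Dse, Chsy1 and Tnc than on the control diet. Srgn codes for serglycin, a secretory granule proteoglycan of blood and endothelial cells, and rose 3.20-fold. Vcan codes for versican, the large stromal lectican, and rose 2.74-fold. Dse, the epimerase that turns chondroitin into dermatan sulfate, rose 1.77-fold. Tnc (tenascin-C) and Chsy1, a chondroitin polymerase, rose 1.52-fold and 1.47-fold. These 5 of 32 tested members (15.6%) stand beside a background of 3.65% of all genes called higher, and no member was called lower, against 3.27%. The members were chosen with earlier results of these data known. Shares of members set beside those of all genes, here and below, are therefore no test of the set. The median of the members was 0.14 log2, beside -0.03 over all genes tested.

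Srgn read 8.29, 9.06, 8.52 and 8.55 log2 on the control arrays of the first VDH15 experiment and 10.40, 10.23, 9.78 and 10.57 on the palmitate arrays. In PLKO tumours of SCC25 Srgn read 8.04, 8.17 and 8.68 on control and 10.64, 10.19 and 10.15 on palmitate. In the second VDH15 experiment Srgn read 8.83, 8.90 and 8.86 against 10.30, 9.40 and 10.96. Every palmitate array lay above every control array of its experiment. The difference for Srgn was 1.68 ± 0.16 log2 (SE, n = 3 experiments; limma, adjusted p = 0.00955), made of 1.64, 2.03 and 1.36 in the 3 experiments. Without the 3 arrays that stood apart it was 1.64 (limma, adjusted p = 0.0152).

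Vcan read 8.57, 7.65, 7.43 and 7.82 on the control arrays of the first VDH15 experiment and 9.80, 9.64, 8.56 and 8.75 on palmitate. For SCC25 the values of Vcan were 7.90, 7.27 and 7.77 against 9.04, 10.00 and 9.49, and in the second VDH15 experiment 8.13, 7.73 and 7.80 against 9.59, 8.36 and 9.24. The groups were apart in 2 of the 3 experiments, and in the first the highest control array just overlapped the lowest palmitate array. The difference for Vcan was 1.45 ± 0.16 log2 (SE, n = 3 experiments; limma, adjusted p = 0.0150), and 1.19 without the 3 arrays that stood apart (limma, adjusted p = 0.0370). For Vcan 5 probe sets are listed. Their differences were 1.45, 1.22, 0.53, 0.19 and 0.16, the last 2 from probe sets with means of 4.17 and 4.21 log2, so all were above 0 and their size differed.

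Dse read 8.01, 7.82, 7.70 and 7.71 on control and 8.42, 8.59, 8.39 and 8.32 on palmitate in the first VDH15 experiment. In SCC25 Dse read 7.50, 7.95 and 7.72 against 8.44, 8.38 and 8.52, and in the second VDH15 experiment 7.56, 8.09 and 7.11 against 9.19, 8.20 and 8.75. The groups did not overlap in any of the 3 experiments. The difference for Dse was 0.82 ± 0.12 log2 (SE, n = 3 experiments; limma, adjusted p = 0.0229). Its relative Dsel, the second epimerase, differed by 0.16 ± 0.09 log2 (limma, adjusted p = 0.343).

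Chsy1 read 8.75, 8.46, 8.53 and 8.74 on control and 9.56, 9.63, 8.98 and 9.15 on palmitate in the first VDH15 experiment. In SCC25 Chsy1 read 8.86, 8.93 and 8.70 against 8.96, 9.28 and 9.23, a gap of a few hundredths between the groups. In the second VDH15 experiment it read 8.80, 8.66 and 8.48 against 9.33, 9.15 and 9.34. The difference for Chsy1 was 0.55 ± 0.09 log2 (SE, n = 3 experiments; limma, adjusted p = 0.0252), 0.33 in SCC25, and 0.71 and 0.63 in the VDH15 experiments.

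Tnc read 11.73, 11.70, 11.72 and 11.71 on control and 12.70, 12.62, 11.99 and 12.21 on palmitate in the first VDH15 experiment. In SCC25 Tnc read 11.49, 11.58 and 11.62 against 12.46, 12.46 and 12.41, and in the second VDH15 experiment 11.91, 11.99 and 11.96 against 12.06, 12.19 and 12.43. The groups did not overlap in any experiment. The difference for Tnc was 0.61 ± 0.13 log2 (SE, n = 3 experiments; limma, adjusted p = 0.0455), and it was the least stable of the 5 calls. It did not pass the test without the 3 arrays that stood apart (0.54, limma, adjusted p = 0.0615), without the filter (limma, adjusted p = 0.0550) or with the mean of both its probe sets (0.52, limma, adjusted p = 0.124). The second probe set of Tnc differed by 0.10, 0.93 and 0.24 in the 3 experiments. Of all 5 calls, without the SCC25 or without the second VDH15 experiment none was made (0 members and 0% of all genes, limma). Without the first VDH15 experiment those of Dse, Srgn and Vcan were made, where 1.75% of all genes were called.

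**Figure D2:**
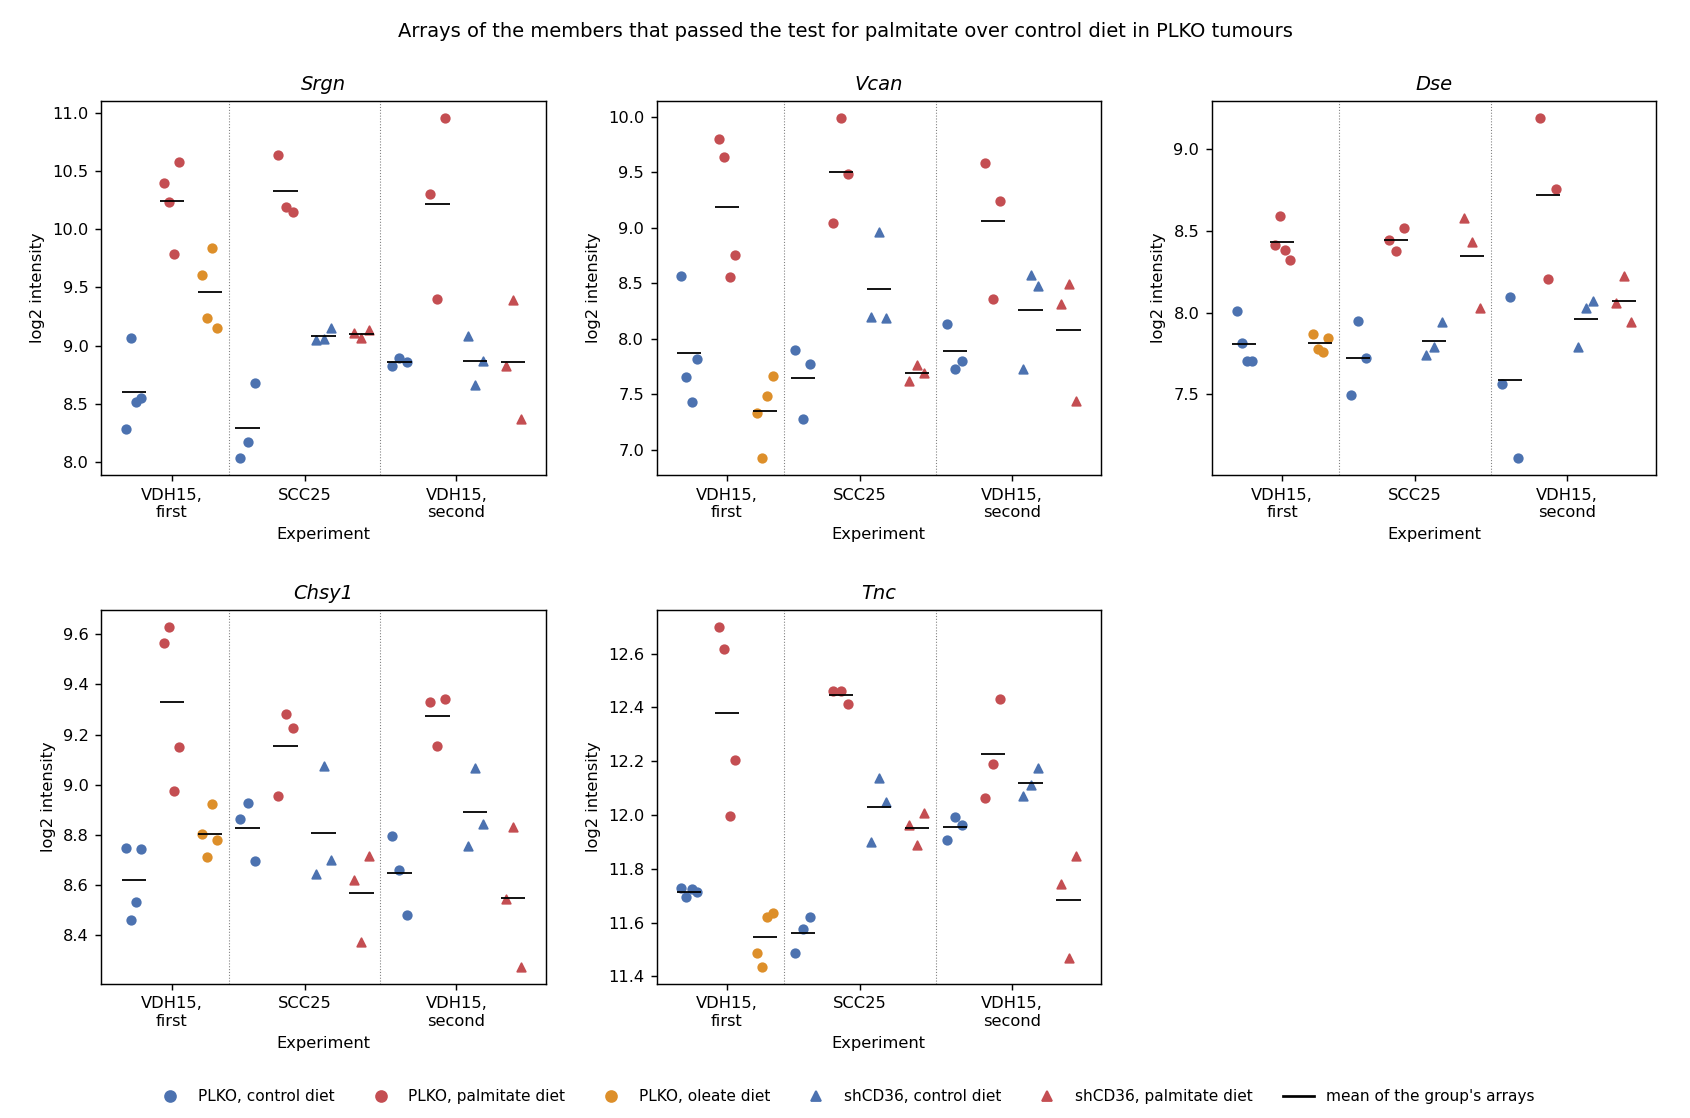
Each point is 1 array, in log2 intensity, for Srgn, Vcan, Dse, Chsy1 and Tnc; columns of points are the 11 groups by experiment, colour is the diet, circles are PLKO and triangles shCD36, and bars are group means. In PLKO tumours every palmitate array sits above every control array of its experiment, except for Vcan in the first VDH15 experiment, where control array 1 (8.57) and palmitate array 3 (8.56) overlap. The shCD36 triangles of both diets in SCC25 lie close together for Srgn (group means 9.09 and 9.10).

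Scan batch, a label that varied only within the first VDH15 experiment, held 2 arrays of each diet. Palmitate minus control was 2.08 log2 in scan batch 2 and 1.20 in scan batch 3 for Srgn, and 1.28 and 1.36 for Vcan. For Dse it was 0.52 and 0.73, for Chsy1 0.72 and 0.70, and for Tnc 0.73 and 0.60, so each of the 5 was above 0 in both scan batches.

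The remaining 27 tested members did not pass this test, although several differed in 1 direction in all experiments. In all, 14 of 32 members had palmitate means above control means in the 3 experiments (43.8%, beside 19.5% of all genes) and 4 had them below (12.5%, beside 28.9%). All palmitate arrays lay above all control arrays in the 3 experiments for Srgn, Tnc, Chsy1, Dse, Reln and Csgalnact1 (18.8% of members, beside 5.72% of all genes). The plot of differences within experiments shows these genes at the top and the hyaluronan genes Has3 and Hyal1 at the bottom.

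**Figure D3:**
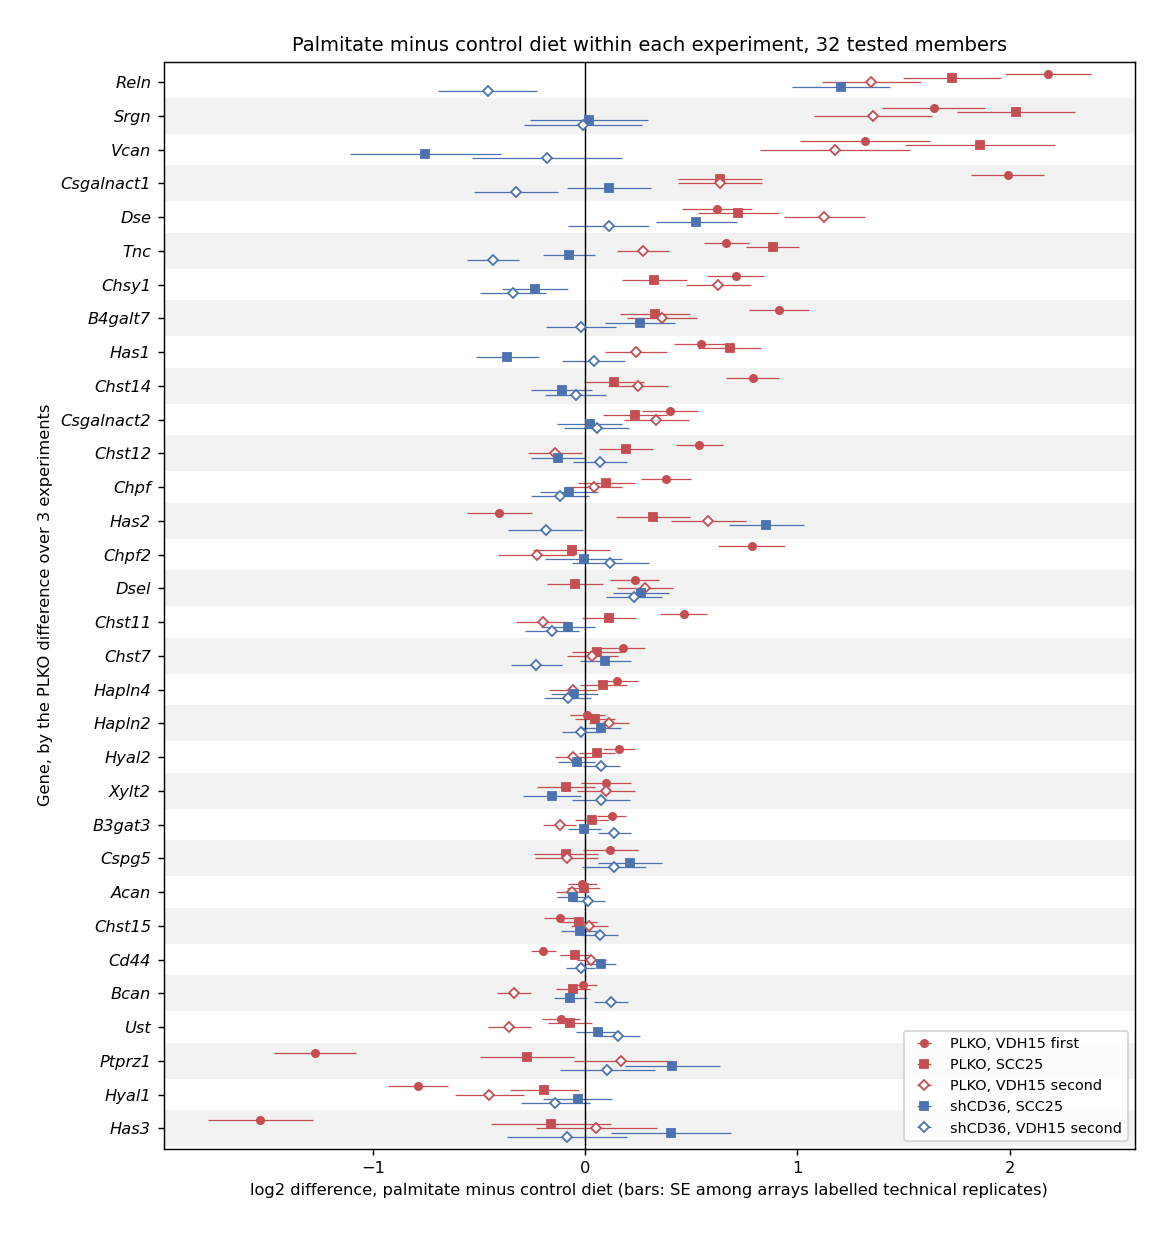
Palmitate minus control diet, in log2, for the 32 tested members (rows, ordered by the difference over the 3 PLKO experiments), with 1 point for each experiment and shRNA and bars of 1 SE among arrays. Red PLKO points of Srgn lie between 1.36 and 2.03, and its blue shCD36 points lie at 0.02 and -0.01.

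Among the other core proteins, Ptprz1 (a receptor phosphatase whose long forms carry chondroitin sulfate) varied in size between experiments. Ptprz1 read 7.09, 6.91, 6.92 and 7.24 on control and 5.11, 5.35, 6.41 and 6.20 on palmitate in the first VDH15 experiment, where all palmitate arrays were lower. The 2 lowest values came from the arrays that stood apart. The difference for Ptprz1 was -1.27 ± 0.19 log2 among the arrays of that experiment (limma, adjusted p = 4.35e-06), -0.27 in SCC25 and 0.17 in the second VDH15 experiment, and -0.46 ± 0.25 over the 3 (limma, adjusted p = 0.296). Its second probe set differed by -1.06, -0.16 and -0.10, so the sign in the second VDH15 experiment depended on the probe set. Acan, Bcan and Cspg5 differed by -0.03, -0.13 and -0.02 log2.

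Reln codes for reelin, a secreted glycoprotein that guides neuron positions and is also made outside the brain. It had the greatest range between groups of the members. Reln read 8.36, 8.33, 7.65 and 7.70 on control and 10.58, 10.50, 9.91 and 9.77 on palmitate in the first VDH15 experiment. In PLKO tumours of SCC25 it read 7.56, 7.80 and 7.60 against 9.32, 9.39 and 9.44, and in those of the second VDH15 experiment 9.03, 9.16 and 8.84 against 11.12, 9.90 and 10.05. No palmitate array reached down to a control array of its experiment. The difference for Reln over the 3 experiments was 1.75 ± 0.60 log2 and missed the threshold (limma, adjusted p = 0.123; 95% interval 0.32 to 3.18). Within experiments it was 2.18 ± 0.20, 1.73 ± 0.23 and 1.35 ± 0.23 among arrays. The SE of 0.60 came from the spread of all 11 groups around the fit, the shCD36 groups included. In those, palmitate minus control for Reln was 1.21 log2 in SCC25 and -0.46 in the second VDH15 experiment. The SE is thus not the spread of the PLKO differences alone.

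The hyaluronan genes did not move as a group: 0 of 6 passed the test over experiments, 3 were above 0 and the median was -0.01 log2, made of -0.30 in the first VDH15 experiment, 0.00 in SCC25 and 0.04 in the second VDH15 experiment. Has1, Has2 and Has3 are the hyaluronan synthases, and each had its own pattern. Has1 read 9.15, 8.47, 8.48 and 8.44 on control and 9.10, 9.37, 9.18 and 9.08 on palmitate in the first VDH15 experiment, so that control array 1 overlapped the palmitate arrays. Has1 differed by 0.49 ± 0.11 log2 over the 3 experiments (limma, adjusted p = 0.0531). Has2 was lower on palmitate in the first VDH15 experiment (-0.40) and higher in SCC25 (0.32) and in the second VDH15 experiment (0.58).

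Has3 read 8.31, 8.27, 8.36 and 8.16 on control and 5.69, 6.10, 7.61 and 7.57 on palmitate in the first VDH15 experiment. As with Ptprz1, all 4 palmitate arrays were lower and the 2 arrays that stood apart were the lowest. The difference for Has3 was -1.53 in that experiment, -0.16 in SCC25 and 0.05 in the second VDH15 experiment, and -0.55 ± 0.29 over the 3 (limma, adjusted p = 0.283). Of the hyaluronidases, Hyal1 differed by -0.48 ± 0.11 log2 (limma, adjusted p = 0.0556), with -0.79, -0.19 and -0.45 in the 3 experiments, and Hyal2 by 0.05 ± 0.09. Group means of Hyal1 ran from 7.40 to 8.23 log2 and those of Hyal2 from 7.45 to 7.66. Cd44, the cell surface receptor for hyaluronan, differed by -0.07 ± 0.07, and its group means lay between 11.35 and 11.55.

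**Figure D4:**
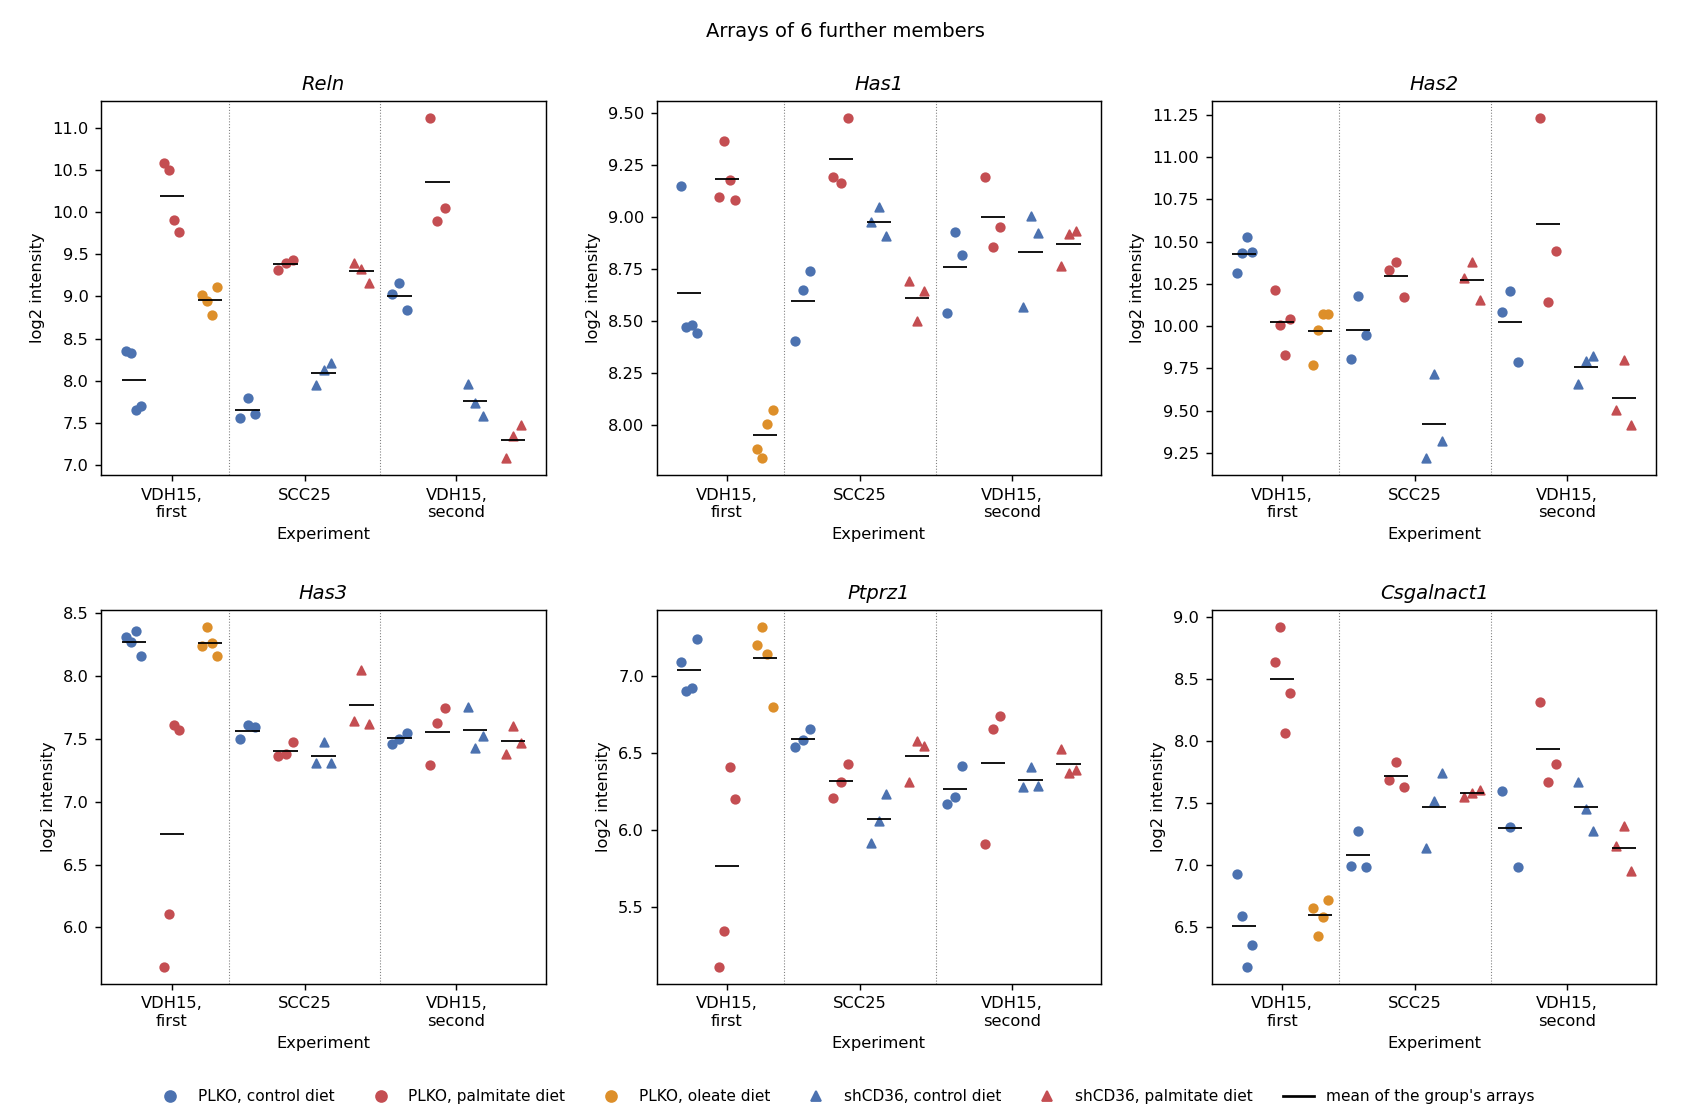
Each point is 1 array, in log2 intensity, for Reln, Has1, Has2, Has3, Ptprz1 and Csgalnact1, with groups, colours and symbols by experiment, diet and shRNA and bars at group means. Has3 and Ptprz1 have their lowest arrays on palmitate in the first VDH15 experiment (5.69 and 5.11), and Reln of shCD36 palmitate tumours is high in SCC25 (9.16 to 9.40) and low in the second VDH15 experiment (7.08 to 7.47).

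Of the 3 measured linker enzymes, which build the sugar bridge to the core protein, 0 passed the test. B4galt7, the first galactosyltransferase of the linker, differed by 0.53 ± 0.13 log2 (limma, adjusted p = 0.0605), with 0.91, 0.33 and 0.36 in the 3 experiments, and its second probe set by 0.42. B3gat3, which adds the closing glucuronic acid, differed by 0.01 ± 0.08 and Xylt2, a xylosyltransferase that starts the chain, by 0.04 ± 0.08. Over the 11 groups the means of B4galt7 ran from 7.47 to 8.38 log2, those of B3gat3 from 8.02 to 8.32 and those of Xylt2 from 5.94 to 6.22.

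Of the 5 measured chain polymerising enzymes only Chsy1 passed, and all 5 were above 0, with a median of 0.32 log2. Csgalnact1 adds the first galactosamine of the chain. It read 6.92, 6.58, 6.18 and 6.35 on control and 8.63, 8.92, 8.06 and 8.39 on palmitate in the first VDH15 experiment. In PLKO tumours of SCC25 Csgalnact1 read 6.99, 7.27 and 6.98 against 7.68, 7.82 and 7.63, and in the second VDH15 experiment 7.60, 7.30 and 6.98 against 8.31, 7.67 and 7.81. The groups of Csgalnact1 were apart in each experiment, and the gap was widest in the first. Its difference was 1.09 ± 0.28 log2 (limma, adjusted p = 0.0644), made of 1.99, 0.63 and 0.64. Csgalnact2, its paralogue, differed by 0.32 ± 0.08 (limma, adjusted p = 0.0558). The polymerising cofactors Chpf and Chpf2 differed by 0.17 ± 0.10 and 0.16 ± 0.19. Chpf2 was above 0 only in the first VDH15 experiment (0.78), and below 0 in SCC25 (-0.06) and in the second VDH15 experiment (-0.23). Group means of Csgalnact2 ran from 5.34 to 5.76 log2, those of Chpf from 6.53 to 7.05 and those of Chpf2 from 5.55 to 6.39.

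Of the 8 tested sulfotransferases and epimerases only Dse passed. Chst14, which sulfates dermatan sulfate, differed by 0.39 ± 0.12 log2 (limma, adjusted p = 0.103). The chondroitin 4-O-sulfotransferases Chst11 and Chst12 differed by 0.13 ± 0.18 and 0.20 ± 0.16. In both, the first VDH15 experiment was above 0 (0.46 and 0.54) and the second was below 0 (-0.20 and -0.14). Chst15, which adds a second sulfate to such units, differed by -0.04 ± 0.07, Chst7 by 0.09 ± 0.08 and Ust, the uronyl 2-O-sulfotransferase, by -0.18 ± 0.08. Chst3, a 6-O-sulfotransferase below the filter, had group means between 4.85 and 5.43. Those of Chst15 ran from 9.59 to 9.71 log2, of Chst11 from 8.90 to 9.38, of Chst12 from 6.89 to 7.43 and of Chst14 from 7.81 to 8.59. The remaining ranges were 5.39 to 5.63 for Chst7, 5.30 to 5.65 for Ust and 8.17 to 8.53 for Dsel.

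Within single experiments the number of members that passed the test among arrays varied widely. In the first VDH15 experiment 20 of 32 did, 15 higher (20.3% of all genes) and 5 lower (27.7%), where 48% of all genes passed. The 5 lower members there were Ptprz1, Has3, Hyal1, Cd44 and Has2. Without the arrays that stood apart 16 members passed, and the share of all genes in that fit is not given here. In PLKO tumours of SCC25 7 members passed, all higher (Reln, Srgn, Tnc, Vcan, Has1, Dse and Csgalnact1), where 6.64% of all genes passed higher, 5.1% lower and 11.7% in either direction. In those of the second VDH15 experiment 9 passed, 7 higher (Dse, Reln, Srgn, Chsy1, Vcan, Has2 and Csgalnact1) and 2 lower (Bcan and Ust), where 8.24% of all genes passed higher, 9.94% lower and 18.2% in either direction. Without array 1 of every group that last count of members was 2, and the share of all genes in that fit is not given here.

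Markers of other cell types moved with these differences. In PLKO tumours 9 of 9 endothelial markers were above 0 on palmitate, with a median of 1.61 log2, and Vwf, Plvap and Tek were called higher. All 10 tested fibroblast markers were above 0, with a median of 1.50, and 5 (Postn, Thy1, Lum, Fap and Fbln1) were called higher. Of 6 tested macrophage markers 1, Mrc1, was called higher (median 0.67), and of 6 pericyte and smooth muscle markers 1, Mcam (median 0.77). Of 9 keratinocyte markers 2, Krt4 and Krt13, were called lower (median -0.45). The Schwann cell list had a median of -0.04, with 0 of 3 tested genes called and 1 above 0. By experiment its median was -0.41 in the first VDH15 experiment, -0.09 in SCC25 and 0.13 in the second VDH15 experiment. The 2 astrocyte and oligodendrocyte genes tested were not called, and of 7 tested neuron markers Tubb3 alone was called, lower. The part of these cell types in the results for Srgn, Vcan and the other members was not tested. In such bulk RNA, fewer cells of a type and less RNA per cell cannot be told apart.

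**Figure D5:**
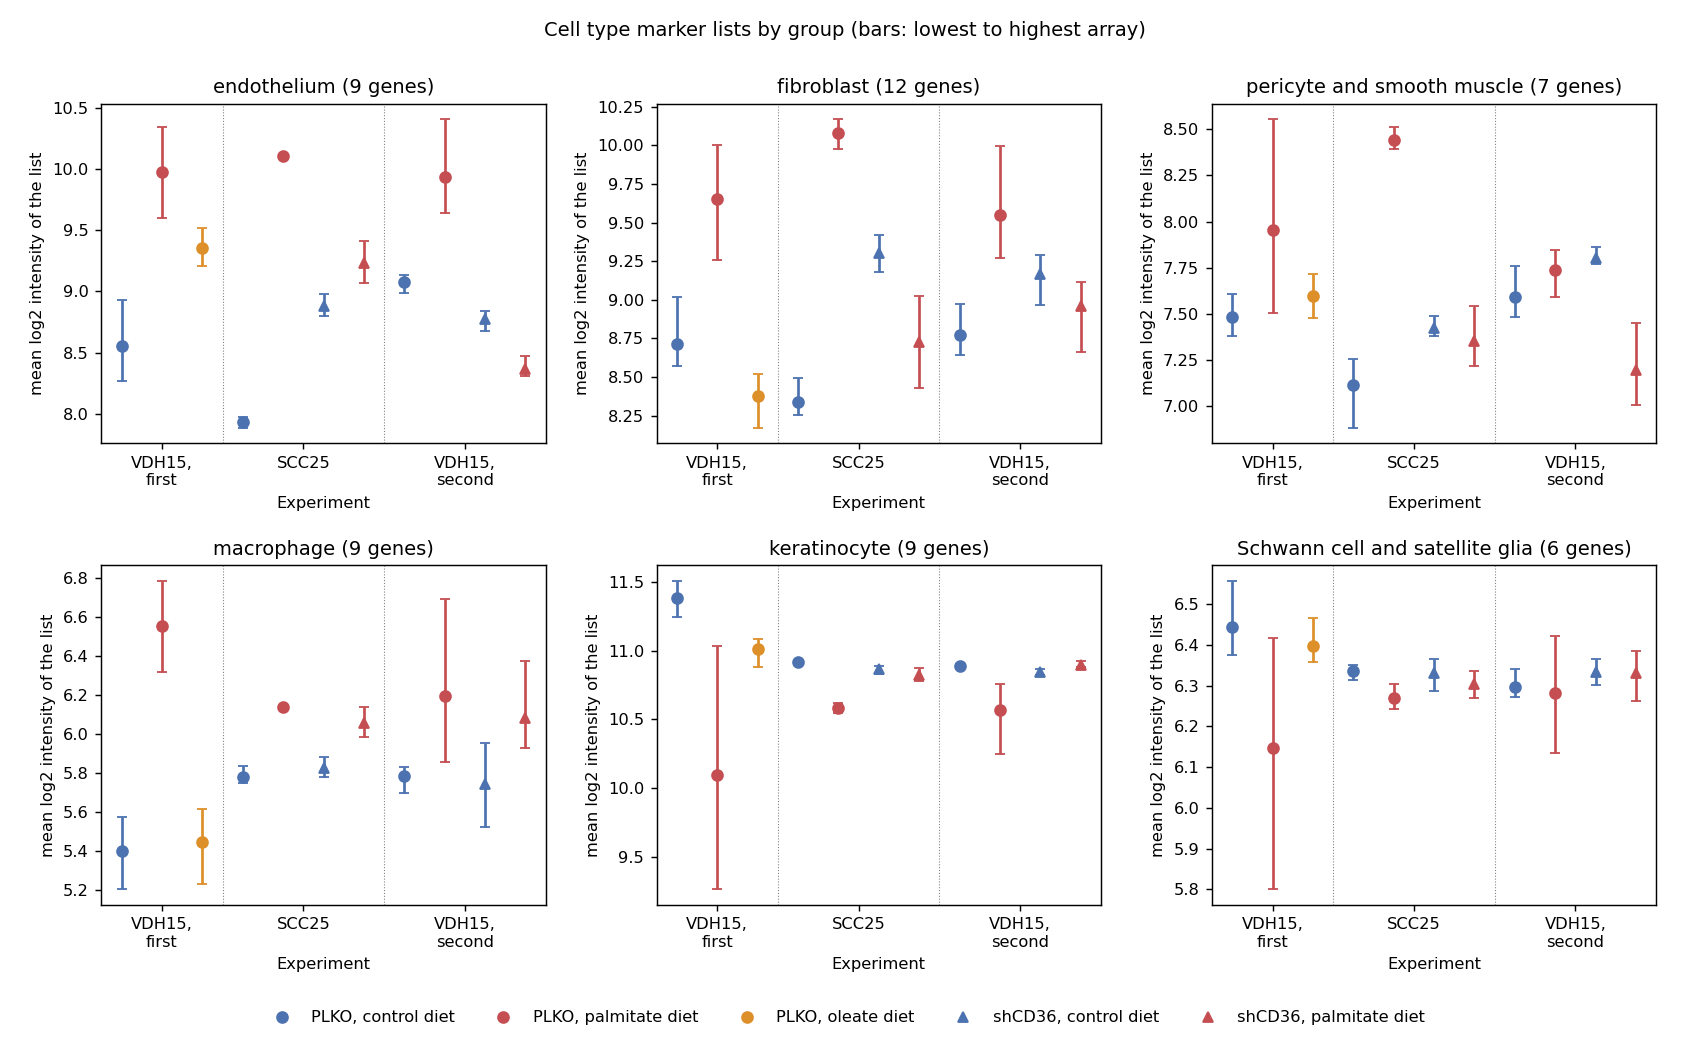
Mean log2 intensity of 6 marker lists in each of the 11 groups, with bars from the lowest to the highest array, colour for diet and symbol for shRNA. The endothelial list reaches 9.94 to 10.11 in the 3 PLKO palmitate groups and 7.93 to 9.08 in the PLKO control groups, and the Schwann cell list stays between 6.15 and 6.45.

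With CD36 knocked down in the tumour cells, no member passed the test of palmitate against the control diet. The test over the SCC25 and second VDH15 experiments called 0 of 32 members and 0% of all genes (limma). At an unadjusted p under 0.05, 1 member stood beside 2.2% of genes. The smallest p-values belonged to Chsy1, at -0.29 ± 0.11 log2 (n = 2 experiments; limma, adjusted p = 0.9998), and Vcan, at -0.47 ± 0.20 (limma, adjusted p = 0.9998).

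In shCD36 tumours of SCC25 Srgn read 9.05, 9.06 and 9.15 on control and 9.11, 9.07 and 9.13 on palmitate, and in those of the second VDH15 experiment 9.08, 8.67 and 8.87 against 8.82, 9.39 and 8.37. The diets overlapped in both, and the difference for Srgn was 0.00 ± 0.19 log2, with a 95% interval from -0.46 to 0.46. Vcan read 8.20, 8.96 and 8.18 on control against 7.62, 7.76 and 7.69 on palmitate in SCC25, where palmitate was the lower group. In the second VDH15 experiment Vcan read 7.73, 8.58 and 8.48 against 8.31, 8.49 and 7.44, and the diets overlapped.

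Among arrays, 2 members passed for palmitate over control in shCD36 tumours of SCC25, both higher, where 2.19% of all genes passed higher, 0.484% lower and 2.67% in either direction. In those of the second VDH15 experiment 0 passed, where 0.608% of all genes passed higher, 1.59% lower and 2.2% in either direction. The 2 were Reln, at 1.21 ± 0.23 log2 (limma, adjusted p = 0.00295), and Has2, at 0.85 ± 0.18 (limma, adjusted p = 0.00543). Reln read 7.95, 8.12 and 8.21 on control and 9.40, 9.33 and 9.16 on palmitate in these SCC25 tumours. In shCD36 tumours of the second VDH15 experiment Reln read 7.96, 7.74 and 7.58 against 7.08, 7.35 and 7.47, so the order of the diets was turned.

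On the palmitate diet, the stroma of shCD36 tumours had lower values of Vcan, Srgn and Chsy1 than that of PLKO tumours, short of the threshold. The test over both experiments called 0 of 32 members, where 0.374% of all genes were called. At an unadjusted p under 0.05, 8 members stood beside 18.4% of genes. Vcan differed by -1.37 ± 0.19 log2 (n = 2 experiments; limma, adjusted p = 0.0532), Srgn by -1.28 ± 0.19 (limma, adjusted p = 0.0596) and Chsy1 by -0.69 ± 0.10 (limma, adjusted p = 0.0631). In SCC25 Vcan differed by -1.81 with no overlap. In the second VDH15 experiment its shCD36 arrays (8.31, 8.49 and 7.44) overlapped the PLKO arrays (9.59, 8.36 and 9.24). Without the experiment term Vcan and Srgn passed (limma, adjusted p = 0.00317 and 0.00384). Each experiment had its own hybridisation batch, and the deposited values held no such difference once diet and shRNA were modelled. A fit without that term does not count this removal, so its p-values may be too small.

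All shCD36 arrays lay below all PLKO arrays on this diet in both experiments for Srgn, Tnc, Chsy1, Csgalnact1 and Csgalnact2, 15.6% of the members beside 6.19% of all genes, and above them for Hyal1 (3.12%, beside 7.19%). Among arrays 5 members passed in SCC25, all lower (Vcan, Has1, Srgn, Tnc and Chsy1), where 3.13% of all genes passed higher, 3.92% lower and 7.05% in either direction. In the second VDH15 experiment 9 passed, against 28.6% of all genes. There B3gat3 was higher (0.27 ± 0.08; 14.2% of all genes higher) and 8 members were lower (14.4% of all genes lower). The 2 with the smallest p were Reln, at -3.06 ± 0.23 log2 (limma, adjusted p = 1.79e-10), and Has2, at -1.03 ± 0.18 (limma, adjusted p = 5.03e-05). In SCC25 the same contrast was -0.08 for Reln and -0.02 for Has2. The difference between the experiments was not tested.

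Marker lists moved here as well. On the palmitate diet the medians of shCD36 over PLKO were -1.19 log2 for the endothelial list (0 of 9 genes above 0) and -1.20 for the fibroblast list (0 of 10 above 0, Postn called lower), and -0.04 for the Schwann cell list. Their part in the values of Vcan and Srgn was not tested.

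On the control diet no member passed the test of shCD36 against PLKO over both experiments: 0 of 32 members and 0% of all genes were called (limma), with 1 member and 3.39% of genes at an unadjusted p under 0.05. Vcan differed by 0.55 ± 0.19 log2 (limma, adjusted p = 0.991) and Tnc by 0.33 ± 0.15 (limma, adjusted p = 0.991). All 10 fibroblast markers (median 0.45 log2) and all 9 endothelial markers (median 0.29, with 1.12 in SCC25 and -0.33 in the second VDH15 experiment) were above 0, with 0 called, and their part in these values was not tested. Tnc read 11.90, 12.14 and 12.05 in shCD36 tumours of SCC25, above the PLKO control arrays, and was the 1 member that passed among arrays there (0.47 ± 0.12, limma, adjusted p = 0.0272). There 1.61% of all genes passed higher, 2.12% lower and 3.74% in either direction. In the second VDH15 experiment Reln alone passed, at -1.25 ± 0.23 log2 (limma, adjusted p = 0.00198), where 0.46% of all genes passed higher, 1.07% lower and 1.53% in either direction.

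The palmitate difference in shCD36 tumours minus that in PLKO tumours was tested as an interaction. It called 0 of 32 members and 0% of all genes (limma), and 8 members and 15.7% of genes had an unadjusted p under 0.05. Vcan had -1.92 ± 0.26 log2 (limma, adjusted p = 0.0668) and Srgn -1.67 ± 0.25 (limma, adjusted p = 0.0807). This comparison, the palmitate effect in PLKO tumours and the effect of shCD36 on palmitate share arrays, so their values are not independent of each other.

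Oleate was given in the first VDH15 experiment only, with 1 group and no replicate over experiments. The fit borrowed its spread from the other groups and called 0 of 32 members and 0% of all genes (limma), with 2 members and 1.75% of genes at an unadjusted p under 0.05. Has1 read 7.88, 7.84, 8.01 and 8.07 on oleate, below every control array, a difference of -0.71 ± 0.18 log2 (limma, adjusted p = 1.00). Srgn read 9.61, 9.24, 9.84 and 9.15 on oleate, above every control array and with one value above the lowest palmitate array, a difference of 0.87 ± 0.25 over control (limma, adjusted p = 1.00). Among arrays Has1 (-0.69 ± 0.13, limma, adjusted p = 0.00347) and Reln (0.95 ± 0.20, limma, adjusted p = 0.00838) passed, where 1.33% of all genes passed higher, 1.13% lower and 2.46% in either direction. All 9 endothelial markers were above 0 for oleate over control (median 0.83 log2), 2 of 10 fibroblast markers were (median -0.32) and 1 of 6 macrophage markers was (median -0.34), with 0 called, and their part in the value of Srgn was not tested.

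Palmitate over oleate called 0 of 32 members, where 0.039% of all genes were called (limma), and 11 members and 12.4% of genes had an unadjusted p under 0.05. Vcan read 7.33, 6.92, 7.48 and 7.66 on oleate, below every palmitate array, and differed by 1.90 ± 0.26 log2 (limma, adjusted p = 0.111). Has1 differed by 1.20 ± 0.18 (limma, adjusted p = 0.121), also with no overlap. For this comparison all 10 fibroblast markers (median 1.65 log2), all 6 macrophage markers (median 1.15) and 8 of 9 endothelial markers (median 0.77) were above 0, with 0 called, and their part in the values of Vcan and Has1 was not tested. Among arrays 20 members passed, 17 higher on palmitate and 3 lower, where 18.4% of all genes passed higher, 24% lower and 42.4% in either direction. Without the arrays that stood apart 11 members passed, and the share of all genes in that fit is not given here.

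Other genes of the pathway were read from lists of their own, for palmitate over control in PLKO tumours, where 3.65% of all genes were called higher and 3.27% lower. Of 7 tested enzymes of chondroitin sulfate and hyaluronan breakdown, 3 rose, the lysosomal Hexa (0.71 ± 0.12 log2) and Gusb (0.77 ± 0.13) and the hyaluronidase Cemip2 (0.84 ± 0.17), and Ids, which removes sulfate from dermatan and heparan sulfate, fell by 0.52 (named after its value was seen). Of 8 proteases that cut lecticans, Adamts5 (0.73 ± 0.14) and Mmp3 (1.81 ± 0.40) rose, and the median of the list was 0.74. Of 11 hyaluronan binding proteins, Itih5 (0.80 ± 0.13) and Stab1 (1.16 ± 0.22), a scavenger receptor of endothelium and macrophages, rose.

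Of 14 genes that supply sulfate and sugar nucleotides, Ugdh, which makes the glucuronic acid donor, rose by 0.41 ± 0.06. Of 9 heparan sulfate core proteins Hspg2 (perlecan, 0.96 ± 0.15) and Sdc2 (0.88 ± 0.18) rose, and of 16 heparan sulfate enzymes Sulf1 (1.43 ± 0.27) rose and Extl1 fell by 0.53. Of 5 chondroitin sulfate receptors and 2 other linker enzymes 0 were called, with medians of -0.20 and -0.05.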

How the data were processed

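RNA was amplified to cDNA before hybridisation, per the labels' protocols. The deposited table held log2 intensities of 36 mouse Affymetrix arrays, which the authors had normalised (the submitters' processing notes name RMA and affy). Terms for hybridisation batch, scan batch and, in a model of its own, cell line came out at 0 for 100% of 45141 probe sets in a model with diet and shRNA, against 0.00222% in one lacking both, so the deposited values carry no such difference and no adjustment was added. How this came about is not given in the sources used here, and levels set across experiments and cell lines are on that scale, so a difference between lines cannot be read from them. The annotation listed 28898 probe sets with 1 gene, 551 with several and 15692 with none. Each of 17097 genes took the probe set with the highest mean, and the lowest 25% of genes (under 5.19 log2) were left out, leaving 12823. Array medians lay between 5.98 and 6.04 log2, and the number of arrays and experiments limits the precision.

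The 11 group means were modelled in limma (version 3.58.1, under R 4.3.3) on condition and experiment (4 residual and 2.70 prior degrees of freedom). A second limma fit on the 36 arrays compared groups within an experiment, with scan batch as a term. Benjamini-Hochberg adjusted p under 0.05 over all 12823 genes was called. Arrays with the same number in different groups had median correlations of 0.0277 in SCC25, 0.0291 in the first VDH15 and -0.0474 in the second VDH15 experiment. Array numbers were therefore not used as pairs in the main fits. These medians cannot show whether equal numbers share an animal or a run. The fits were tested on simulated data. Alternatives were no filter, the mean of all probe sets, no experiment block, all arrays with group as a random block, limma-trend, single experiments, and arrays left out. Named were the called members or, with none called, at least the 2 with the smallest p, and every member by its level. Motifs were searched on both strands. The members and gene lists were chosen with earlier results of these data known. Promoters came from RefSeq, build GRCm38.p6.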

Additional observations from a re-analysis of the deposited data

Results flagged for a closer look

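Among 108 tests of single arrays in the 3 groups of 4 arrays, 2 values stood far from the other 3 of their group. Chance flags about 1 in 20 groups, so 2 flags among 108 tests are not more than chance alone would give. Has1 read 9.15 log2 on control array 1 of the first VDH15 experiment, with the other control arrays at or below 8.48. Xylt2 read 5.995 log2 on oleate array 1 of that experiment, with the nearest other array at 6.03, a gap that is small beside the range of this gene elsewhere.

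In several places every array of one group moved one way and every array of the other the opposite way, and these differences were not tested. The cases here and in the next paragraph were picked from all members and many contrasts. The share of all genes with such a pattern is not given, so they cannot be set against a background. In SCC25, palmitate minus control was 1.86 log2 in PLKO and -0.75 in shCD36 tumours for Vcan, and 0.68 and -0.37 for Has1. The reverse order held there for Ptprz1 (-0.27 and 0.41) and Has3 (-0.16 and 0.40). In the second VDH15 experiment it was 0.27 and -0.43 for Tnc, and 1.35 and -0.46 for Reln. In shCD36 tumours Reln differed by 1.21 in SCC25 and by -0.46 in the second VDH15 experiment.

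On the control diet, shCD36 minus PLKO was 0.44 in SCC25 and -1.25 in the second VDH15 experiment for Reln. It was 0.17 and -0.21 for Hyal2, 0.37 and -0.36 for Chst12, -0.17 and 0.29 for Chst11, and -0.32 and 0.08 for Dsel.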

How the results depend on the processing

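For palmitate over control in PLKO tumours, 5 members passed on group means, where 6.92% of all genes passed. Without the replicate block (the experiment term) 12 did, all 5 among them, where 23.4% of all genes passed. With all arrays and the group as a random block 12 did, where 23.8% of all genes passed. Fits without the experiment term may give p-values that are too small. Hybridisation batch followed experiment, and its differences were already absent from the values once diet and shRNA were modelled. Leaving out 1 experiment in turn gave 0 to 3, where 0% to 1.75% of all genes passed. No filter (4), the mean of all probe sets (6), limma-trend (6) and leaving out the 3 arrays that stood apart (4) stayed within 1.5 times. The shares of all genes in these 4 fits were 4.28%, 7.53%, 7.24% and 4.67%. The members changed: no filter and leaving out those arrays lost Tnc, the mean of all probe sets lost Tnc and gained Csgalnact2 and Has1 (4 of 5 shared), and limma-trend added Csgalnact2. For shCD36 over PLKO on palmitate the count went from 0 to 7 without the replicate block and 7 with the random block. The interaction went from 0 to 5 and 6, and palmitate over oleate from 0 to 9 and 4. For these comparisons the shares of all genes in the alternative fits are not given here, so the counts cannot be set against a background. The other 3 counts on group means stayed at 0 in every alternative run. No called value changed sign. Of the members' medians under alternatives, 14 stayed within the spread between experiments and 11 moved beyond it. For palmitate in PLKO tumours the median was 0.14 log2 and 0.04 without the first VDH15 experiment, and for palmitate in shCD36 tumours it was 0.02 and turned to -0.01 without SCC25.

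Among arrays, leaving out 1 array number in turn gave 0 to 2 members for oleate over control, 13 to 19 for palmitate over oleate, 4 to 7 for palmitate in PLKO tumours of SCC25 and 2 to 9 in those of the second VDH15 experiment. It gave 0 to 2 for palmitate in shCD36 tumours of SCC25, 0 to 1 for shCD36 on the control diet in SCC25 and 0 to 1 in the second VDH15 experiment, and 2 to 5 for shCD36 on palmitate in SCC25. With only the arrays of one experiment the counts were 0 for oleate over control (2 in the full fit), 6 for palmitate in shCD36 tumours of SCC25 (2), 9 and 8 for shCD36 in SCC25 on control (1) and palmitate (5), and 0 for shCD36 on the control diet in the second VDH15 experiment (1). Leaving out the 3 arrays that stood apart, chosen for these counts after seeing the data, gave 4 for oleate over control and 11 for palmitate over oleate (20). It gave 4 for palmitate in shCD36 tumours of SCC25, 5 and 8 for shCD36 in SCC25 on control and palmitate, 4 for shCD36 on the control diet in the second VDH15 experiment, and 1 for palmitate in its shCD36 tumours (0), where the mean of all probe sets also gave 1. The cause of these changes was not tested. Shares of all genes under these alternatives are not given here, so the counts of members in them cannot be set against a background. Array numbers as a replicate block moved no count by over 1.5 times. The 3 experiments, and 1 labelled biological replicate per group, limit every comparison here.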
